A study of Mus musculus with 4 samples.

Results

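Clustered histone genes were followed in mouse spleen cells that had been activated in culture with or without imatinib. The genes were chosen by name: every array probe that is no control spot and whose gene name in the scanner files begins with Hist1, Hist2, Hist3 or Hist4 was taken. This gave 51 probes for 47 genes, of 39429 probes for 31829 gene names on the array. Of the 51 probes, 50, for 46 genes, were tested; a probe was tested when both arrays of a group put it well above background, and all 50 were well above background on all 4 arrays. The remaining probe, for the linker histone Hist1h1d, was above background on 1 control array only.

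Spleen cells of female C57BL/6 mice, 8 weeks old, were kept for 72 h in medium with interleukin 4 and LPS, a mixture that drives B cells to divide and to switch antibody class. The imatinib group had 10 µM imatinib, a drug that blocks ABL and a few other tyrosine kinases, in the same medium, and the control group had none. Each group has 2 samples, imatinib 1 and 2 and control 1 and 2, each on 1 single-colour Agilent array. Separate cultures or animals are not named in the labels, so p-values measure the spread between these samples, which may be technical. In these mixed cells, fewer cells of a type and less RNA per cell cannot be told apart.

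Histones are the proteins around which DNA is wound. Pairs of H2A, H2B, H3 and H4 form the nucleosome core, and H1, the linker histone, binds where the DNA enters and leaves it. The clustered genes, also called replication-dependent histone genes, have many near-identical copies and no introns, and they are transcribed in S phase, when new DNA must be packed. Their messenger RNAs end in a short stem-loop in place of a poly(A) tail; the stem-loop binding protein Slbp holds it, and some of the genes also give longer, polyadenylated RNAs that read past the stem-loop. How the labelling reaction was primed is not given in the sources used here.

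Because the copies are so alike, the probe sequences decide what a value can mean. The set shown first holds 60-base probes for 4 H2A genes that share the same coding stretch up to the stop codon. Capitals mark the bases that differ from the Hist1h2af probe, 5 in each of the other probes, and all are written 5′ to 3′ as the scanner files give them.
Hist1h2af: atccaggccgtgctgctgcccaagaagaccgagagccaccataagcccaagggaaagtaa
Hist1h2ak: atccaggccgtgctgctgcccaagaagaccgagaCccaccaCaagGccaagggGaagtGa
Hist1h2an: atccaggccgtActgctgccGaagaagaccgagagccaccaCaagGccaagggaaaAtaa
Hist2h2aa2: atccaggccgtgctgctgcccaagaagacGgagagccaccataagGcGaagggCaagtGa
With a Hist1h2ah probe that is shifted along the same stretch, these 5 probes differ from at least 1 other by at most 6 mismatches over at least 50 aligned bases and were treated as near-identical. A probe of Hist1h4d and one of Hist1h4k form the other near-identical pair. No pair of histone probes shared an identical run of 50 bases; the longest was 42, between Hist1h2ah and Hist2h2ac. A signal on one of these probes can hold RNA of the other copies. In all, 18 of the 50 tested probes shared a run of at least 20 bases with another histone probe or with another gene's probe, the replacement variant H2afj among them.

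A second set of probes is shown for where it lies on the messenger. The stem-loop was searched as GGCNCTT, then 3 bases with T in the middle, then AGNGCC, on the strand that the probes give, and capitals mark it.
Hist2h2aa1: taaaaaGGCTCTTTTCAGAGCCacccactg
Hist2h2bb: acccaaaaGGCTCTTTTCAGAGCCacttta
Hist1h3a: aattaaccaaaGGCTCTTTTCAGAGCCaca
Hist1h3g: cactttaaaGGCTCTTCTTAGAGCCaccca
Hist1h3i: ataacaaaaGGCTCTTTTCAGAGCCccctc
Hist1h2ae: CTTTTCAGAGCCattcacttaattcagtaa
The probes of Hist2h2bb, Hist1h3a, Hist1h3g and Hist1h3i stop 3 to 6 bases after the stem-loop. The Hist2h2aa1 probe goes on for 38 bases after it, and the Hist1h2ae probe begins inside it and goes on for 48, so both read sequence downstream of the usual end of the mature RNA. The poly(A) signal AATAAA stood in the probes of Hist1h2ag and Hist3h2ba, and its variant ATTAAA in those of Hist1h2be and Hist1h4i (A_55_P2174198). Of these 4 only Hist3h2ba was called, and its AATAAA is shown in capitals with the bases around it, since it had the largest difference.
Hist3h2ba: gttcataatggtattAATAAAtttggttca

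Values below are log2 of the processed signal, with 0 at the 75th percentile of the array, and a difference is the imatinib mean minus the control mean. Imatinib and control arrays were compared with limma over all 25375 tested probes, and a probe is called when its Benjamini-Hochberg adjusted p over all of them is under 0.05. Of the 50 histone probes, 2 were higher with imatinib, 11 were lower and 37 were not called. Of all tested probes 41.9% were called, 19.3% as higher and 22.5% as lower, against 26.0% of the histone probes. Imatinib arrays did not overlap control arrays for 31 histone probes on the low side and 8 on the high side, where all tested probes gave 38.4% on the low side and 35.2% on the high side. The median histone difference was -0.15, with 40 of 50 below 0, and that of all tested probes was 0.00090. No histone probe differed by 2-fold or more, 35 of 50 differed by less than 0.3, and the extremes were -0.99 for Hist3h2ba and 0.79 for Hist2h2aa1. With either imatinib array left out fewer histone probes were called, and fewer of all tested probes were called as well. Such a fit leaves 1 array in a group, so its counts are not given.

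**Figure D1:**
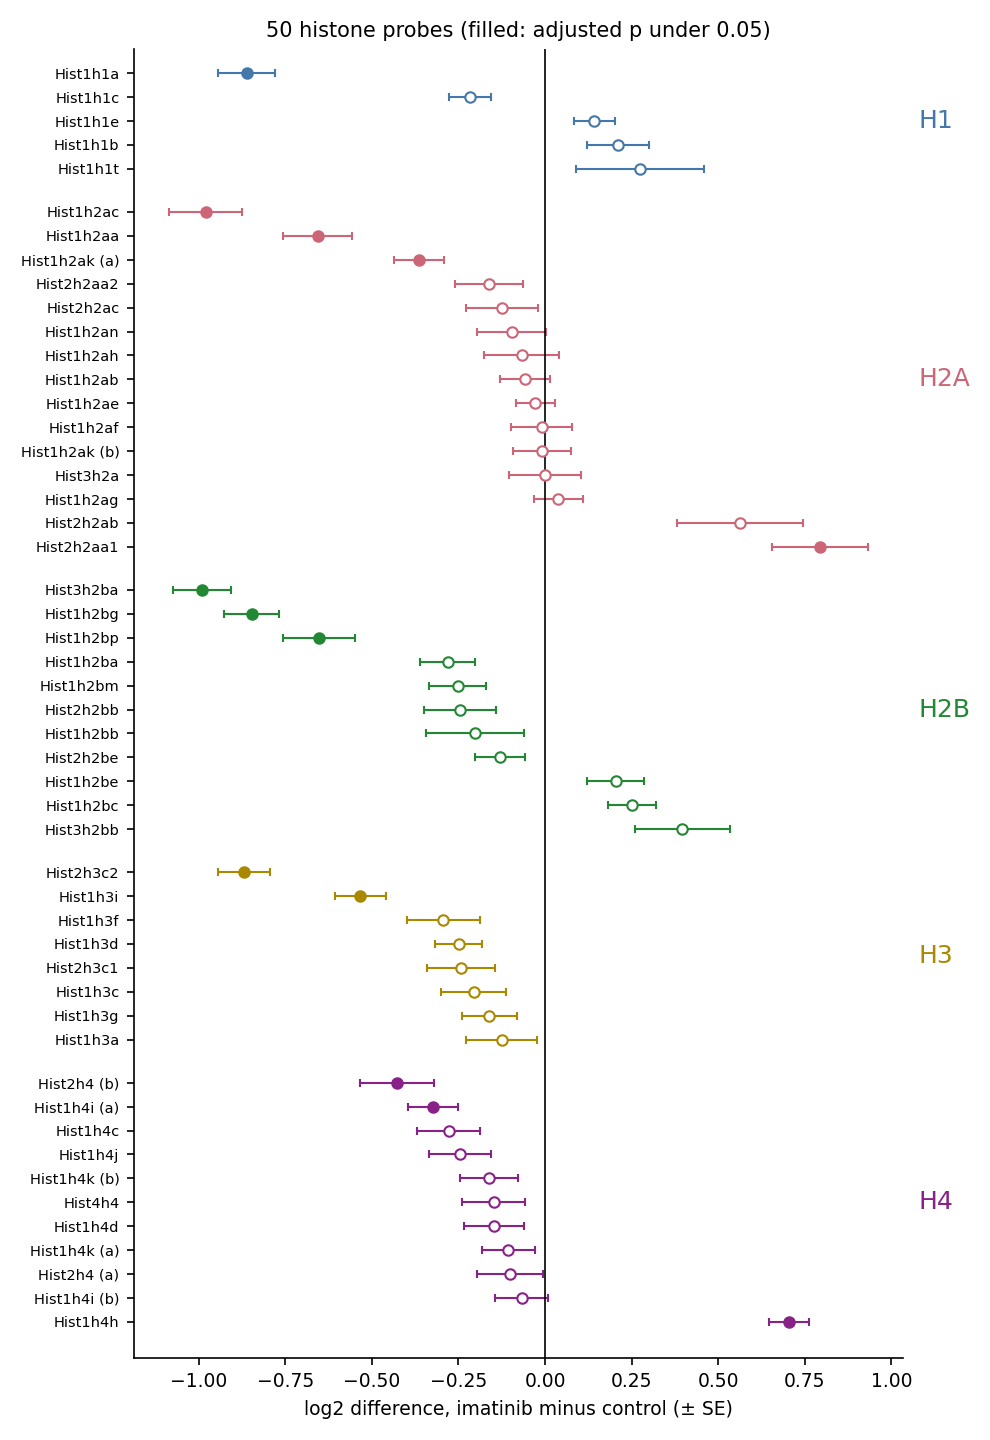
Log2 difference, imatinib minus control, with its SE for the 50 tested histone probes, grouped by histone type; filled points have an adjusted p under 0.05, and (a) and (b) mark the 2 probes of a gene in the order of their probe names. Of the filled points 11 lie below 0 and 2, Hist1h4h and Hist2h2aa1, above it.

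Scaling moved the zero of all these differences. Centring each array on its median shifted the median of all tested probes by -0.19, and scaling on 8 spike-in probes shifted it by -0.28. Against 2 higher and 11 lower, the histone counts were then 2 higher and 30 lower with median centring and 2 higher and 39 lower with spike-in scaling. Of all tested probes, 13.0% were then higher and 36.5% lower with median centring, and 11.0% and 46.3% with spike-in scaling. Without these scalings they were 19.3% and 22.5%. Both scalings shift all probes alike, so the histone median stayed 0.155 below that of all tested probes.

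Among the H1 genes, 1 of 5 tested probes was called, Hist1h1a, and it was lower (22.5% of all tested probes were lower and 19.3% higher). Hist1h1a, which encodes the H1.1 linker histone, had 1.16 and 1.20 on the imatinib arrays, against 2.12 and 1.96 on the control arrays. The imatinib arrays lay close together and well below both control arrays, with a difference of -0.86 (SE 0.082, limma adjusted p = 0.0050), a ratio of 0.551, and it was called under all 13 alternative settings. Its probe, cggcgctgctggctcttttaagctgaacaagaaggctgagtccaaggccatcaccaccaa, shares no run of 20 bases with any other probe on the array. Hist1h1b (H1.5) had 4.67 and 4.67 on the imatinib arrays, against 4.56 and 4.36 on the control arrays, a difference of 0.21 (SE 0.090, adjusted p = 0.14). Hist1h1e (H1.4) had 4.92 and 4.92 with imatinib, against 4.81 and 4.75 in control cells (0.14, SE 0.060, adjusted p = 0.13). Neither passed the test, although Hist1h1b was called higher when limma used a trend and robust variance (adjusted p = 0.022). The sign of both turned with spike-in scaling (-0.071 for Hist1h1b and -0.14 for Hist1h1e). With median centring that of Hist1h1e turned too, to -0.044. Hist1h1c, the H1.2 gene, was at -0.22 (adjusted p = 0.052), and Hist1h1t, a testis-specific H1, at 0.27 with a wide error (SE 0.185, adjusted p = 0.30). The median over the 5 probes, 0.14, likewise turned to -0.044 with median centring and -0.14 with spike-in scaling.

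Of 15 tested H2A probes, 3 were lower, 1 was higher and 11 were not called (22.5% of all tested probes were lower and 19.3% higher). The median difference of the H2A probes was -0.058. The 7 brightest, all with a mean level of at least 8, were those of Hist1h2af, Hist1h2ag, Hist1h2ah, Hist1h2an, Hist2h2aa2, Hist2h2ac and 1 probe of Hist1h2ak. Their levels ran from 8.46 to 9.14 over all arrays, none was saturated, and their differences lay between -0.16 and 0.038 with none called. For Hist1h2af the levels were 8.80 and 8.83 with imatinib, against 8.92 and 8.74 in control cells, so the imatinib arrays fell between the control arrays. In 6 of these 7 probes the groups overlapped, and since 5 of them are the near-identical set shown above, they are not 7 separate readings. Among all 243 tested probes with a mean level of 8 to 9, the median difference was 0.15, with a 10th percentile of -0.0020 and a 90th of 0.23.

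Hist1h2ac, a canonical H2A gene, had the lowest H2A difference. Its probe had a stop codon in every reading frame, so it does not read coding sequence alone. Its levels were -5.42 and -5.51 with imatinib, against -4.37 and -4.61 in control cells, with no overlap (-0.98, SE 0.106, adjusted p = 0.0063). At these low levels the background correction matters: with normexp correction the difference was -0.11 (adjusted p = 0.19). Hist1h2aa, the testis H2A gene known as TH2A, had -3.72 and -3.54 on the imatinib arrays, against -2.90 and -3.05 on the control arrays (-0.66, SE 0.0998, adjusted p = 0.013). With normexp the difference was -0.28, still called, and without imatinib 1 it was -0.57 with an adjusted p of 0.060.

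For Hist1h2ak the A_52_P498208 probe, outside the near-identical stretch, had 6.21 and 6.29 with imatinib, against 6.66 and 6.56 in control cells. It was called lower (-0.36, SE 0.073, adjusted p = 0.024). The other probe of the same gene, A_55_P2084652, whose sequence stands above, had 8.73 and 8.75 with imatinib, against 8.83 and 8.66 in control cells, and a difference of -0.0088 (SE 0.083, adjusted p = 0.94). Both probes carry the same gene name, and the called one shares no run of 20 bases with another probe. Its adjusted p was 0.13 when imatinib 1 was left out, 0.090 when imatinib 2 was, and 0.067 when control 1 was.

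Hist2h2aa1 was the only H2A probe called higher. It had 0.05 and 0.09 on the imatinib arrays, against -0.55 and -0.90 on the control arrays, a difference of 0.79 (SE 0.138, adjusted p = 0.017) and a ratio of 1.73. The groups did not overlap, although the control arrays lay further apart than the imatinib arrays; without imatinib 1 or imatinib 2 the adjusted p was 0.069 or 0.075. Its sister gene Hist2h2aa2, which encodes the same H2A type, is read by a coding probe and had 8.59 and 8.46 with imatinib, against 8.78 and 8.59 in control cells (-0.16, SE 0.098, adjusted p = 0.25). The Hist2h2aa1 probe reads past the stem-loop and the Hist2h2aa2 probe reads coding sequence, so the values concern different stretches of RNA. The other probe that reads past the stem-loop, that of Hist1h2ae, had -3.16 and -3.14 with imatinib, against -3.12 and -3.13 in control cells, a difference of -0.028 (SE 0.057, adjusted p = 0.72). Of the remaining H2A probes, Hist2h2ab was at 0.56 (SE 0.181, adjusted p = 0.074) without a call. Hist3h2a had -0.74 and -0.58 with imatinib, against -0.76 and -0.56 in control cells, the smallest difference of all (-0.0013, SE 0.104, adjusted p = 0.99).

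**Figure D2:**
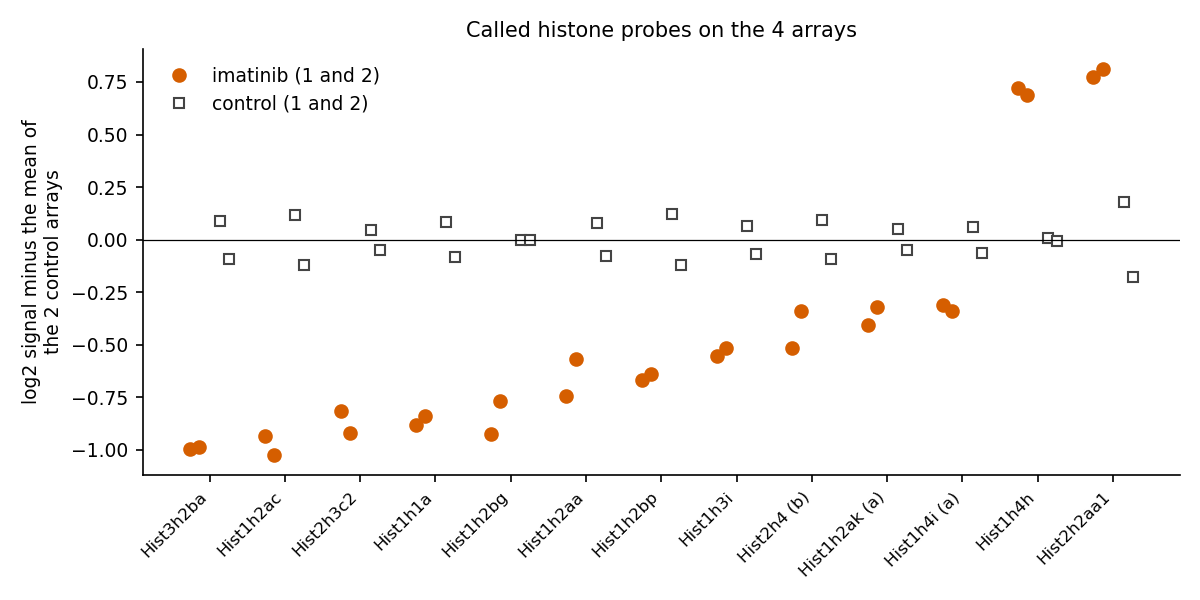
Log2 signal on each of the 4 arrays minus the mean of the 2 control arrays, for the 13 called histone probes; circles are imatinib arrays and squares control arrays. For each of the 13 probes both imatinib arrays lie on the same side of both control arrays. The choice of probes by adjusted p on these same arrays largely sets this. The marks (a) and (b) give the 2 probes of a gene in the order of their probe names.

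H2B pairs with H2A in the nucleosome. Of its 11 probes 3 were lower, none was higher and 8 were not called, with a median of -0.25. The shares over all tested probes were 22.5% lower and 19.3% higher. Hist3h2ba, from the small Hist3 cluster, had -1.52 and -1.51 with imatinib, against -0.43 and -0.61 in control cells. This was the largest difference of all histone probes (-0.99, SE 0.085, adjusted p = 0.0040), a ratio of 0.503, and it was called under all 13 alternative settings. The AATAAA in its probe, printed above, ends 9 bases before the end of the probe. Hist1h2bg had -3.32 and -3.16 with imatinib, against -2.39 and -2.39 in control cells (-0.85, SE 0.079, adjusted p = 0.0048), and its control arrays agreed almost exactly. With normexp its difference was -0.48. Hist1h2bp had -5.28 and -5.26 with imatinib, against -4.49 and -4.74 in control cells (-0.65, SE 0.103, adjusted p = 0.014). With normexp it was -0.077 (adjusted p = 0.41), and without imatinib 1 or imatinib 2 the adjusted p was 0.069 or 0.065. Of the others, Hist1h2ba, the testis H2B gene known as TH2B, was at -0.28 (SE 0.080, adjusted p = 0.056). The smallest H2B difference was that of Hist2h2be, with -3.99 and -3.93 on the imatinib arrays, against -3.77 and -3.89 on the control arrays (-0.13, adjusted p = 0.22). Next came Hist1h2bb, with -1.87 and -1.90 on the imatinib arrays, against -1.50 and -1.87 on the control arrays (-0.20, adjusted p = 0.31). Both had groups that did not overlap by a narrow margin, and 3 probes lay above 0 without a call, Hist1h2be, Hist1h2bc and Hist3h2bb, at 0.20 to 0.40.

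H3 was the histone type in which every probe lay below 0. Of the 8 probes 2 were called, both lower (22.5% of all tested probes were lower). The arrays of the groups did not overlap in any of the 8, with imatinib lower, as in 38.4% of all tested probes. The H3 differences ran from -0.87 to -0.13 with a median of -0.25. Hist2h3c2, a gene of the H3.2 protein in the Hist2 cluster, had -4.68 and -4.78 with imatinib, against -3.81 and -3.91 in control cells (-0.87, SE 0.075, adjusted p = 0.0041). With normexp it was -0.22 and still called. Its neighbour in name, Hist2h3c1, was brighter, with 3.85 and 3.86 with imatinib, against 4.21 and 3.98 in control cells (-0.24, SE 0.098, adjusted p = 0.12). The Hist2h3c2 probe had a stop codon in every reading frame, and the Hist2h3c1 probe had none before its end. The values may therefore concern different stretches of RNA. Hist1h3i had 0.67 and 0.71 with imatinib, against 1.29 and 1.15 in control cells (-0.53, SE 0.075, adjusted p = 0.011), and without imatinib 1 or imatinib 2 the adjusted p was 0.067 or 0.060. The smallest H3 differences were in probes that also end at the stem-loop. Hist1h3a had -0.034 and -0.038 with imatinib, against 0.21 and -0.034 in control cells (-0.13, SE 0.104, adjusted p = 0.39), where imatinib 1 and control 2 were level to 3 decimals. Hist1h3g had 0.12 and 0.034 with imatinib, against 0.30 and 0.18 in control cells (-0.16, SE 0.078, adjusted p = 0.18). The 6 probes that were not called lay between -0.29 and -0.13.

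All H4 genes encode the same protein. Of their 11 probes for 8 genes 1 was higher, 2 were lower and 8 were not called, with a median of -0.15. The shares over all tested probes were 19.3% higher and 22.5% lower. Hist1h4h had -2.38 and -2.41 on the imatinib arrays, against -3.10 and -3.11 on the control arrays. With arrays of a group this close, its difference of 0.70 had the smallest SE of the called histone probes (0.058, adjusted p = 0.0036); the ratio was 1.63, and it was called under all 13 alternative settings. It was the only H4 probe above 0, since the other 10 lay between -0.43 and -0.067. The 8 probes without a call lay between -0.28 and -0.067.

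In 3 of the 4 genes with a pair of probes, only 1 probe of the pair was called. For Hist2h4 the A_55_P1974967 probe had -3.60 and -3.42 with imatinib, against -2.99 and -3.18 in control cells (-0.43, SE 0.107, adjusted p = 0.041). Its A_55_P1973349 probe had 7.44 and 7.33 with imatinib, against 7.58 and 7.39 in control cells (-0.10, SE 0.096, adjusted p = 0.45). The call of the dim probe was lost without any 1 of the 4 arrays, with adjusted p of 0.058 to 0.16, and with normexp (-0.16, adjusted p = 0.096). For Hist1h4i the A_55_P2158697 probe had 1.27 and 1.24 with imatinib, against 1.64 and 1.52 in control cells (-0.32, SE 0.072, adjusted p = 0.030). Its adjusted p was 0.13 when imatinib 1 was left out, 0.15 when imatinib 2 was, 0.071 when control 1 was, and 0.052 with quantile normalization. The A_55_P2174198 probe of Hist1h4i, which shares a run of at least 20 bases with a Galns probe, had 0.98 and 1.03 with imatinib, against 1.14 and 1.00 in control cells (-0.067, SE 0.077, adjusted p = 0.53). Of the Hist1h4k probes, A_55_P2091145 had 7.55 and 7.56 with imatinib, against 7.73 and 7.58 in control cells (-0.11, adjusted p = 0.32). A_55_P2091147 had 4.45 and 4.405 with imatinib, against 4.67 and 4.501 in control cells (-0.16, adjusted p = 0.20).

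Calls were rarer among bright histone probes than among dim ones. Of 20 histone probes with a mean level of at least 3, 1 was called (5.0%), against 41.7% of all 3484 tested probes of that brightness. Between 0 and 3, 3 of 11 were called (27.3%, against 52.5% of 6059), and below 0, 9 of 19 (47.4%, against 37.8% of 15832). The medians in these classes were -0.11, -0.28 and -0.13 for histone probes and -0.073, -0.13 and 0.070 for all tested probes. These classes were chosen after the values were seen and are given as a description. Of the 20 bright probes, 7 are the H2A probes at 8 or above, which are not 7 separate readings. Of the 18 probes that share a run of 20 bases with another probe, 2 were called (11.1%), against 11 of 32 that share none (34.4%). The part of shared sequence in these shares was not tested. Across the 50 histone probes the size of the difference fell with brightness (Pearson's r = -0.58; the points share the same 4 arrays, and dim probes have larger errors), and r of the difference with the GC content of the probe was -0.0062.

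**Figure D3:**
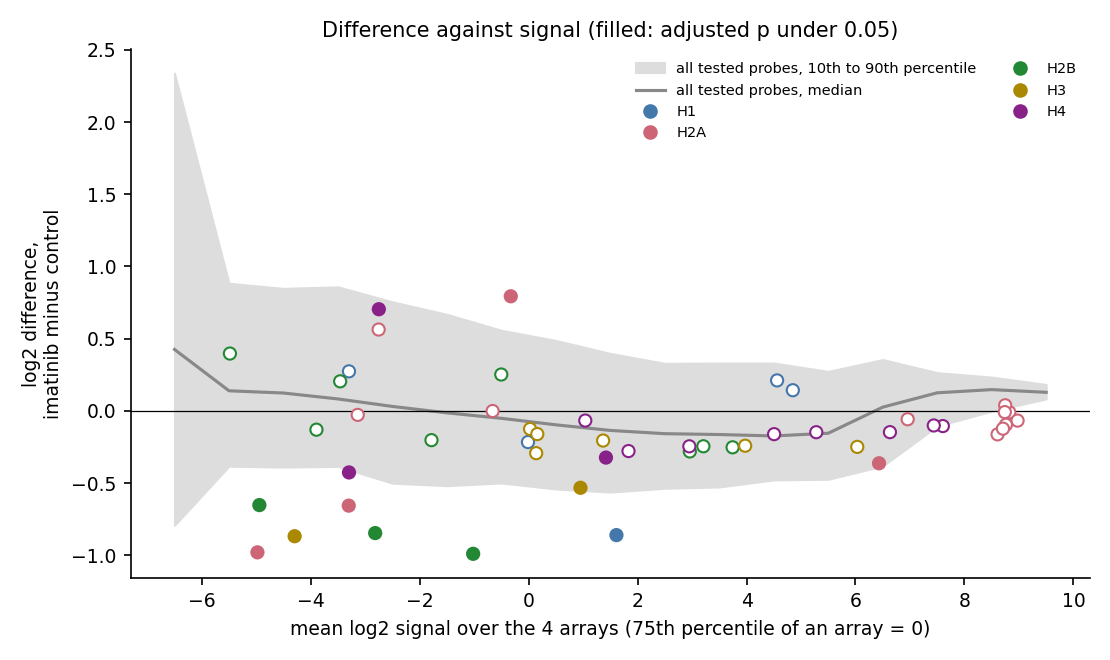
Log2 difference, imatinib minus control, against the mean log2 signal over the 4 arrays for the 50 histone probes, coloured by histone type and filled where the adjusted p is under 0.05; the grey band spans the 10th to the 90th percentile of all tested probes in bins of 1 log2 unit, and the line is their median. Of the 13 filled points, 9 lie below a mean signal of 0, and the 7 probes at 8 to 9 lie between -0.16 and 0.038.

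The control arrays differed from each other across nearly all histone probes. Control 1 was above control 2 for 48 of the 50, by a median of 0.17, whereas the median gap over all tested probes was 0.042 (15511 of 25375 positive). Imatinib 1 and imatinib 2 differed by a median of -0.023. The gap was of like size in every type, with medians of 0.15 (H2B) to 0.19 (H2A), so it is about as large as the median difference between the groups. More histone probes were called lower without control 2 than with all arrays, and fewer without control 1. The medians without control 1 were 0.0046 for H2A, -0.13 for H2B, -0.15 for H3 and -0.075 for H4, and without control 2 they were -0.12, -0.35, -0.33 and -0.25. What set the control arrays apart was not tested.

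**Figure D4:**
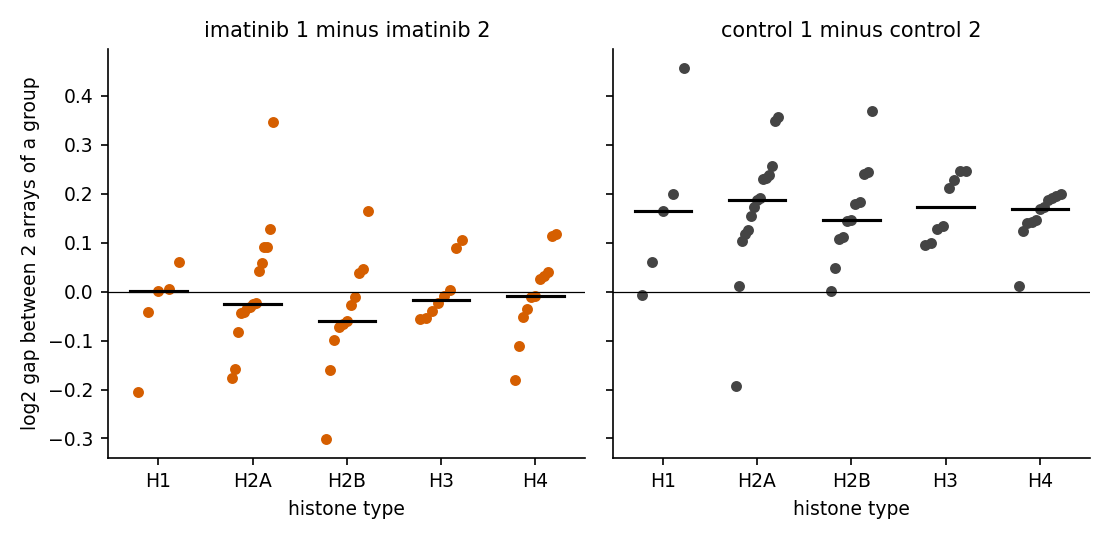
Log2 gap between the arrays of a group for the 50 tested histone probes by histone type, imatinib 1 minus imatinib 2 on the left and control 1 minus control 2 on the right, with the median of each type as a line. The imatinib medians lie near 0 and the control medians between 0.15 and 0.19.

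Promoters could be described for 41 of the 47 genes from RefSeq's table (build GRCm38.p6, 250 bases before to 50 after the start, both strands searched). The octamer ATTTGCAT, which is bound by octamer factors and is known from H2B promoters, stood in 6 of 8 H2B and 7 of 14 H2A promoters and in none of the H1, H3 and H4 promoters, against 1.97% of all genes in the table. CCAAT stood in 36 of 41 (all promoters of H1, H2A, H2B and H3, and 2 of 7 of H4), against 41.1% of all genes, and TATAAA in 25 of 41, against 15.7%. H2A and H2B genes often lie head to head and share the stretch between their starts. That between Hist1h2ae and Hist1h2bg is shown as an example. Its partners differed in their call, as did those of the other pairs given below. The pairs given are examples and do not show how often partners share a call. It lies at chr13:23571221-23571399, 179 bases printed on the plus strand, with Hist1h2bg read to the right and Hist1h2ae to the left. Capitals mark the octamer, the TATAAA box, and CCAAT on either strand.
Hist1h2ae/Hist1h2bg: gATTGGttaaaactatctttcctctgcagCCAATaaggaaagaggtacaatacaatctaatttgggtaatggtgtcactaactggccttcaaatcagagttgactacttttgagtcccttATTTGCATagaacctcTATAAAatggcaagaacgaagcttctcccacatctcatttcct
Hist1h2bg was lower (-0.85) and Hist1h2ae was at -0.028, with a probe that reads past its stem-loop. In the pair Hist1h2bp and Hist1h2an, 239 bases apart, Hist1h2bp was lower (-0.65) and Hist1h2an, one of the near-identical set, was at -0.10. The stretch between their starts held no octamer, with CCAAT at 4 places and TATAAA at 1. In the pair of testis genes, 280 bases apart, Hist1h2aa was lower (-0.66) and Hist1h2ba was at -0.28, narrowly without a call (limma adjusted p = 0.056). Differences between partners were not tested.

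Genes that make and handle histones were counted beside the histone genes, each gene by its brightest probe. Of 23 tested genes for histone mRNA processing and histone gene transcription, 13 were lower, 4 were higher and 6 were not called, with a median of -0.34; of all tested probes 22.5% were lower and 19.3% higher, with a median of 0.00090. Slbp had -0.32 and -0.49 with imatinib, against 0.10 and 0.32 in control cells (-0.61, SE 0.111, adjusted p = 0.019). Casp8ap2, known as FLASH, which works with the U7 particle in cutting histone RNA, had -0.84 and -0.90 with imatinib, against -0.10 and 0.05 in control cells (-0.85, SE 0.078, adjusted p = 0.0046). Both were lower without overlap. Ars2, named Srrt in the files and a partner of the cap-binding complex, had 0.10 and 0.04 with imatinib, against 0.82 and 0.95 in control cells (-0.82, SE 0.075, adjusted p = 0.0046). Npat, the coactivator that cyclin E and Cdk2 switch on at histone genes, had -5.89 and -5.69 with imatinib, against -6.42 and -6.30 in control cells (0.58, SE 0.0999, adjusted p = 0.017). Npat was above background on both imatinib arrays and on 1 of the 2 control arrays, so it was tested through the imatinib group, and the size of its difference rests in part on a value not above background. The other 22 genes were above background on all arrays. E2f1, Papd5 and Zcchc6 were the other 3 that were higher. Leaving out an array cut these counts, most when an imatinib array was left out. Calls over all tested probes fell with each array left out as well.

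Histone chaperones carry newly made histones to the DNA. Of 21 tested, 12 were lower, 1 (Ubn1 of the Hira complex) was higher and 8 were not called, with a median of -0.37, beside the same 22.5% lower and 19.3% higher over all tested probes. Hjurp, the chaperone of the centromeric H3 variant Cenpa, had -1.48 and -1.49 with imatinib, against -0.74 and -0.65 in control cells (-0.79, SE 0.066, adjusted p = 0.0037). Hira, which deposits the replacement histone H3.3, had -0.09 and -0.04 with imatinib, against 0.64 and 0.65 in control cells (-0.71, SE 0.060, adjusted p = 0.0039). In both genes the arrays of a group agreed closely and the groups were far apart by comparison. Nasp and Asf1a, chaperones of H3 and H4, were lower by values of -0.60 (SE 0.060, adjusted p = 0.0056) and -0.59 (SE 0.122, adjusted p = 0.025). With any array left out fewer chaperones were called lower, fewest when an imatinib array was left out, and Ubn1 was not called. Fewer of all tested probes were called then too.

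S phase genes gave 17 lower, none higher and 6 not called of 23 tested, with a median of -0.29 and a range of -0.52 to 0.19, beside 22.5% lower and 19.3% higher over all tested probes. Cdc45 (Cdc45l in the files), a part of the replicative helicase, had -1.33 and -1.30 with imatinib, against -0.83 and -0.76 in control cells (-0.52, SE 0.062, adjusted p = 0.0077). Rrm1, a subunit of ribonucleotide reductase, had 3.509 and 3.570 with imatinib, against 4.045 and 4.002 in control cells (-0.48, SE 0.062, adjusted p = 0.0089). The helicase subunits Mcm5 and Mcm6 followed at -0.45 and -0.45 (adjusted p = 0.0099 and 0.010). Without imatinib 1 or imatinib 2 no S phase gene was called, and without control 1 or control 2 fewer were lower. Calls over all tested probes also fell in each of these fits.

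Replacement histone variants, which are made outside S phase as well and mostly from polyadenylated RNA, changed in 3 of 13 tested genes: 1 was higher, 2 were lower and 10 were not called, with a median of -0.12, where 41.9% of all tested probes were called. Cenpa, which marks centromeres and is itself made in dividing cells, had 2.22 and 2.26 with imatinib, against 2.82 and 2.98 in control cells (-0.66, SE 0.082, adjusted p = 0.0083). H3f3b, one of the H3.3 genes, had 5.14 and 5.16 with imatinib, against 5.44 and 5.44 in control cells (-0.28, SE 0.057, adjusted p = 0.023). H2afv, a variant of the H2A.Z kind, had 4.449 and 4.404 with imatinib, against 4.0004 and 4.0776 in control cells (0.39, SE 0.064, adjusted p = 0.015). H1f0, a linker variant of resting cells, was above background on both control arrays and on 1 of the 2 imatinib arrays, so its difference of -1.10, which was not called (SE 0.431, adjusted p = 0.11), rests in part on a value not above background. With imatinib 1 left out no variant was called, and the counts also changed with each of the other arrays left out. Over all tested probes calls fell in each of these fits.

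**Figure D5:**
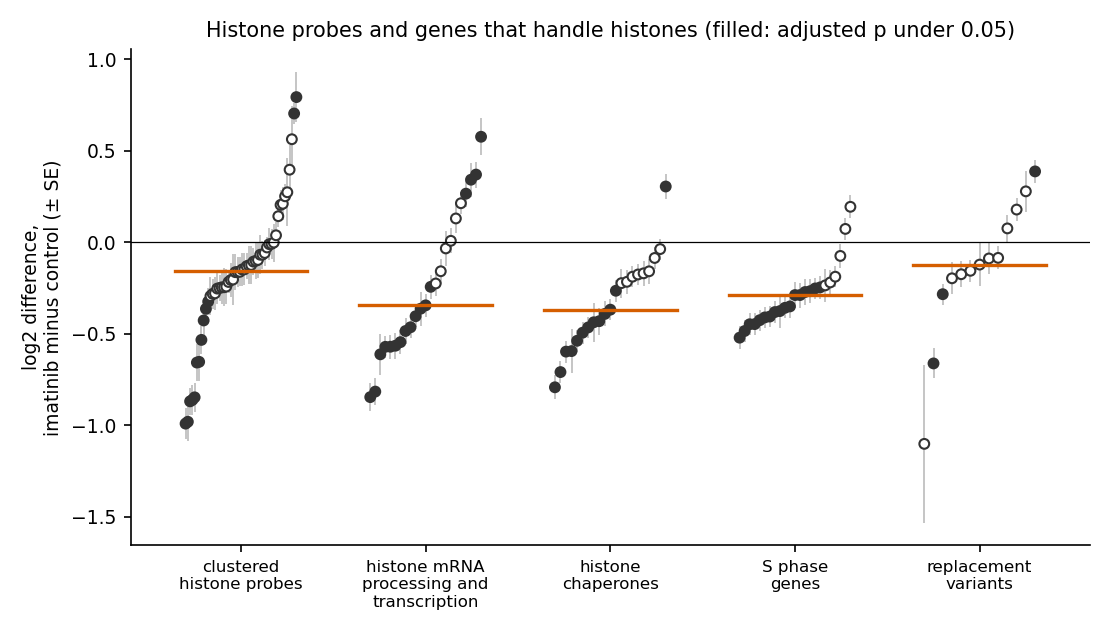
Log2 difference, imatinib minus control, with its SE, for the 50 clustered histone probes and for the tested genes of 4 lists (23 for histone mRNA processing and transcription, 21 chaperones, 23 S phase genes, 13 replacement variants), sorted within each list; filled points have an adjusted p under 0.05 and lines are medians. The medians of the first 3 lists are between -0.37 and -0.29, against -0.15 for the histone probes and -0.12 for the variants.

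RNA levels of cell type markers differed between the groups as well. They are given beside 22.5% lower and 19.3% higher over all tested probes. A summed level is the log2 of the summed signals of the markers before log2, so the brightest markers weigh most. All 8 B cell markers were tested. Of these 5 were lower, none was higher, and the median was -0.38. Their summed level was 8.39 and 8.41 with imatinib, against 8.58 and 8.48 in control cells. Of 9 tested T cell markers 7 were higher and none was lower, with a median of 1.505 and a summed level of 5.58 and 5.58 with imatinib, against 4.57 and 4.53 in control cells. Among 7 macrophage markers 3 were higher and 1 was lower (summed level 2.79 and 2.88 with imatinib, against 2.83 and 2.74 in control cells), and among 6 neutrophil markers 4 were higher and 1 was lower (summed level 1.44 and 1.58 with imatinib, against 1.81 and 1.71 in control cells). One of the 4, S100a9, was above background on both imatinib arrays and on 1 of the 2 control arrays. Trac had no probe, and Fcgr1, Ltf and Ngp were not tested. The part of these shifts in the histone values was not tested.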

How the data were processed

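RNA of spleen cells was measured on 4 single-colour (Cy3) Agilent arrays of design 026655, 2 with imatinib and 2 without, at 4 positions of 1 slide per the labels. Spot intensity, background-subtracted in the processed signal, comes from the deposited scanner output of Feature Extraction. The file headers give 9.1.3.1 as the version of grid placement. A second deposited table, in log2, serves as an alternative. Up to a constant for each array, it equals the scaling used here within 0.01 for 99.9% of probes. How the authors made it is not given in the sources used here.

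After outlier spots were dropped, the spots of each probe were averaged, and log2 of the 75th percentile of the array (699 and 678 with imatinib, 739 and 854 in control cells) was subtracted. Probes well above background numbered 25192 and 26762 with imatinib, against 25336 and 25018 without. No spot was saturated. A marked value kept 92 probes out. limma 3.58.1 in R 4.3.3 (a moderated linear model with a term for group and none other, 2 residual and 2.05 prior degrees of freedom) was fitted to all tested probes; it had been tested on simulated data. The number of arrays limits the precision.

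The members and lists were chosen with earlier results of these data known, so no test over the members is given. Values on all arrays are given for called members (up to 5 a type), the 2 smallest differences a type and genes with several tested probes. Of each list, up to 4 of the largest called differences are given, plus Slbp, Npat and Casp8ap2. Nasp, Asf1a, Mcm5 and Mcm6 among these are given without array values. Of the 47 genes, 46 matched RefSeq by accession. Proteins were not used here. Alternatives were normexp (offset 50), quantile normalization, median centring, spike-in scaling, the filter on dim probes, the replicate block, each array left out, the deposited table, trend and robust variance, and near-identical probes counted once.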

Additional observations from a re-analysis of the deposited data

How the results depend on the processing

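The counts of histone probes higher and lower with imatinib, 2 and 11, were 5 and 17 with normexp, 2 and 17 with quantile normalization, 2 and 30 with median centring, 2 and 39 with spike-in scaling, 5 and 21 with trend and robust variance, and 1 and 6 with no filter on dim probes. Beside them, of all tested probes 26.3% were higher and 23.5% lower with normexp, and 17.8% and 25.1% with quantile normalization. With trend and robust variance they were 22.5% and 27.9%, and with no filter 7.2% and 5.4%. With median centring they were 13.0% and 36.5%, and with spike-in scaling 11.0% and 46.3%. With an imatinib array left out both histone counts fell, as did calls over all tested probes. The median difference moved for H1 (0.14) to -0.044 with median centring, -0.14 with spike-in scaling and -0.037 with no filter; for H2A (-0.058) to -0.18 with quantile normalization, -0.25 with median centring and -0.34 with spike-in scaling; for H2B (-0.25) to -0.11 with normexp, -0.43 with median centring and -0.53 with spike-in scaling; for H3 (-0.25) to -0.43 with median centring and -0.53 with spike-in scaling; and for H4 (-0.15) to -0.34 and -0.43. With an array left out the medians were 0.045 to 0.17 (H1), -0.12 to 0.0046 (H2A), -0.35 to -0.13 (H2B), -0.33 to -0.15 (H3) and -0.25 to -0.075 (H4). For the list of histone mRNA processing, higher and lower genes (4 and 13) came to 1 higher with median centring and 0 higher with spike-in scaling. They came to 0 and 7 with no filter, and both counts fell with an array left out. For replacement variants (1 and 2) they were 2 higher with normexp, and 2 and 5 with quantile normalization and with trend and robust variance. They were 0 and 7 with median centring, 0 and 9 with spike-in scaling and 0 and 1 with no filter. They also changed with an array left out. For chaperones (1 and 12) they were 0 higher with median centring, 0 and 20 with spike-in scaling, and 0 and 6 with no filter. Both counts fell with an array left out. For S phase genes (0 and 17) they were 1 higher with normexp, quantile normalization and trend and robust variance, and 2 lower with no filter. Fewer were lower with an array left out. With no filter or an array left out, fewer of all tested probes were called too. Signs turned without a call for Hist2h2be with normexp (0.045), Hist1h1e with median centring (-0.044) and spike-in scaling (-0.14), Hist1h1b with spike-in scaling (-0.071), Hist1h2ak (A_55_P2084652) without imatinib 1 (0.0027) or control 1, where its range with an array left out was -0.095 to 0.078, Hist1h4i (A_55_P2174198) without control 1 (-0.14 to 0.0027), and Hist3h2a without imatinib 1 (0.077) or control 2 (-0.098 to 0.095). Among uncalled probes with the 2 smallest differences of a type or of a gene with several probes, some gained a call. With median centring 6 did, and with spike-in scaling 9. With quantile normalization 2 did, and with trend and robust variance 1, Hist1h1b. A group left with 1 array was assumed to vary like the other. The causes were not tested, except that scaling shifts all probes and that no filter tests more probes.

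With the replicate block, 3 histone probes were higher and 8 lower, 10 of these 11 also called without it. Of all tested probes, 14.4% were higher and 13.8% lower with the block. The lists then gave 1 higher and 9 lower (histone mRNA processing), 0 and 1 (replacement variants), 0 and 8 (chaperones) and 0 and 9 (S phase genes). The same-numbered arrays did not deviate together (r = -0.069 over all tested probes, 0.11 over the histone probes, from 2 pairs), and no label says that they share a source, so the numbers were not taken as pairs. The deposited table and the filter for probes above background on all arrays moved no count or median named here by over 1.5 times. Counting probes that share a run of at least 50 bases once, or those with at most 6 mismatches once (chosen after seeing the data), left 2 and 11. Neither could change these counts, because no pair shares such a run and no near-identical probe was called.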
